A study of Mus musculus with 2 samples.

Results

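The genes that encode the proteins of the cytosolic ribosome were described across the myeloid cells of the adult mouse brain. Members were the gene symbols that begin with Rpl or Rps and a digit or with Rplp and a digit, together with Rpsa, without pseudogenes, without the paralogs whose symbols end in l1 and without the Rps6k kinases. Of 84 such symbols, 83 had at least 100 UMIs over both libraries, among 32285 genes in all. By name, 49 members belong to the large and 34 to the small subunit. Rpl10l, with 0 UMIs, was left out. Read letter by letter, the condition on l1 would remove 12 more members, such as Rpl10, and that reading was kept as an alternative.

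Both groups were whole brains of male littermates aged 23 weeks. Actinomycin D was present during dissociation to stop transcription, and CD11b-positive cells with low CD45 were sorted. The wild-type group was Disc1 WT/WT, and the other, Disc1 LI/LI (LI below), was homozygous for a locus impairment allele of Disc1. For each group the brains of 6 mice were pooled into 1 droplet library, so genotype, pool and library cannot be told apart, no comparison has a replicate and no test was made. Which of the chips named in the protocol carried each library was not given in the sources used here.

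A UMI tags 1 captured transcript at its 3′ end, and a level is given as UMIs per 1000000 UMIs of the same cells (CPM), not divided by gene length. All intervals given are 95% intervals of counting error and of nothing else. Barcodes with under 200 genes or over 10% mitochondrial UMIs were left out, which kept 7032 of 7038 wild-type and 7817 of 7834 LI barcodes. The libraries had 12 barcode sequences in common. Over all kept barcodes, Disc1 itself had 642 UMIs (19.1 CPM) in the wild-type library and 22 UMIs (0.461 CPM) in the LI library. Of these barcodes 88.1% in the wild-type and 25.7% in the LI library met the microglia gate defined below. The part of this cell mix in the Disc1 levels was not tested.

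Ribosomal proteins form, with ribosomal RNA, the small subunit, which reads the mRNA, and the large subunit, which joins amino acids. Their mRNAs are among the most abundant of most cells, and many begin with a run of pyrimidines at the 5′ end, the terminal oligopyrimidine tract, through which nutrient signalling controls their translation. Dividing progenitors make many ribosomes, whereas maturing neutrophils stop dividing and make few. Microglia are the resident macrophages of the brain.

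Microglia were cells with at least 0.5% of their UMIs from P2ry12, Gpr34, Tmem119, Siglech, Fcrls and Olfml3, which held for 6192 wild-type and 2011 LI cells. Neutrophils were cells with at least 3% of UMIs from S100a8 and S100a9, 116 wild-type and 3622 LI cells. Progenitors were cells with at least 0.2% from the granule genes Mpo, Elane, Prtn3 and Ctsg, 8 wild-type and 235 LI cells. A further 728 and 2075 cells met no gate. The labels name all cells microglia, whereas 46.3% of the kept LI cells met the neutrophil gate. The gates overlapped: 11 wild-type and 57 LI cells met the microglia and neutrophil gates, and 1 and 68 cells met the neutrophil and progenitor gates. All 12 microglia markers and all 12 neutrophil markers were detected in at least 10% of the cells of their own gate in both libraries. Of the 9 progenitor markers this held for 8 in the wild-type library, where Kit was at 0 in the 8 cells, and for 9 in the LI library. These lists hold the genes that define the gates, so part of this detection was fixed by the rule. Detection alone did not separate all gates. All 12 microglia markers also reached 10% of wild-type neutrophils (5 did in LI ones), at 9035 CPM against 46972 CPM in microglia. All 12 neutrophil markers reached 10% of LI progenitors (10 did in wild-type ones), at 63714 CPM against 409425 CPM in neutrophils.

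Transcript starts are shown for members on which the results turn, because the start holds the pyrimidine tract that many of them share. Each line gives 30 bases of RefSeq sequence (GRCm38.p6), of which the last 15 begin at the annotated start, 5′ to 3′, with the longest run of C and T in capitals. In Rps24, Rps27, Rps9 and Rplp2 a run of at least 8 spans the annotated start. In Rps26 such a run begins shortly after it. In Rpsa, Rps2, Rplp0 and Rpl41 the longest run is shorter than 8.
Rps24, chr14:24490663-24490692, plus strand: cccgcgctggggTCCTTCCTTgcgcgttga
Rps27, chr3:90213634-90213663, minus strand: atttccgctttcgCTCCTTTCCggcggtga
Rps9, chr7:3704026-3704055, plus strand: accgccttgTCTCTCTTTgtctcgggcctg
Rplp2, chr7:141447636-141447665, plus strand: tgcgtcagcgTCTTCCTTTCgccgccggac
Rps26, chr10:128626492-128626521, minus strand: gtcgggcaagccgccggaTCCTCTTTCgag
Rpsa, chr9:120127751-120127780, plus strand: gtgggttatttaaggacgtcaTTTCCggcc
Rps2, chr17:24720048-24720077, plus strand: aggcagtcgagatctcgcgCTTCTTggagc
Rplp0, chr5:115559452-115559481, plus strand: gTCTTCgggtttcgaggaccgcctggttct
Rpl41, chr10:128549154-128549183, minus strand: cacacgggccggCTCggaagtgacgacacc

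Start sequences were matched for 63 of the 83 members. A run of at least 8 pyrimidines lay in the 30-base window of 26 of them (41.3%), against 13.9% of 27025 genes in the table and 15.2% of the 9180 genes with at least 100 UMIs. At least 5 pyrimidines in a row, counted from the annotated start onward, were found in 17 members (27.0%) and in 5.28% of all genes. This count includes runs that began before the start. The letters CCGGAAG or their reverse complement CTTCCGG, which ETS factors are known to bind, occurred in the 300 bases around the start in 26 members (41.3%), in 9.93% of all genes and in 21.6% of genes with at least 100 UMIs. Those 300 bases include the window, and CTTCCGG itself holds a short pyrimidine run. Of genes with several annotated starts, the longest run was counted.

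Ribosomal protein mRNA was a small part of the transcripts of neutrophils, a larger part of those of microglia and the largest part of those of progenitors. In the wild-type library the members took 4.28% of the summed UMIs of neutrophils (4.23 to 4.33), 8.65% of those of microglia (8.63 to 8.66) and 20.0% of those of progenitors (19.9 to 20.2). In the LI library these shares were 5.59% (5.58 to 5.60), 10.3% (10.2 to 10.3) and 24.5% (24.4 to 24.5). The order of the cell types was the same in both libraries, with no overlap of the intervals. The share per cell had a median of 7.85% in wild-type microglia, with quartiles of 6.42% and 9.85%, and of 2.79% in wild-type neutrophils, with quartiles of 2.05% and 4.50%. The 8 wild-type progenitors had a median of 19.9%. The LI medians were 9.20% in microglia, 2.91% in neutrophils and 24.4% in progenitors.

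**Figure D1:**
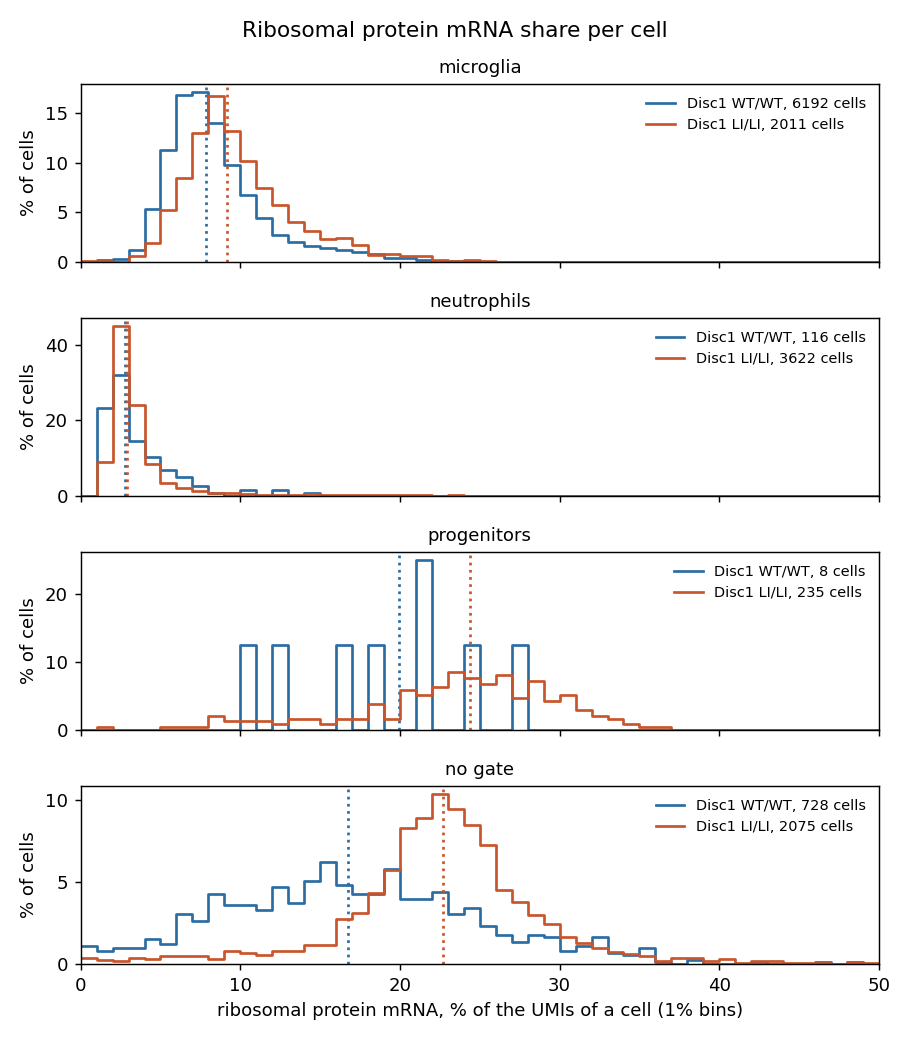
Share of the UMIs of a cell that come from ribosomal protein genes (x axis, percent, bins of 1%) against the percent of cells of the gate (y axis), by gate, in Disc1 WT/WT (blue) and Disc1 LI/LI (orange). Dotted lines mark the medians, which are 7.85% and 9.20% in microglia, 2.79% and 2.91% in neutrophils, 19.9% and 24.4% in progenitors, and 16.7% and 22.7% in cells of no gate.

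The number of different members found in a cell followed the same order. After each cell was thinned to 1000 UMIs, a median of 46 members was detected in wild-type microglia, 21 in neutrophils and 64.5 in progenitors, and the LI medians were 50, 22 and 70. Without thinning the medians were 74, 48 and 80 in either library, at median depths of 4275, 4844.5 and 24567 UMIs for the wild-type cells and 3832, 4194 and 25589 UMIs for the LI cells. Thinning left out 104 wild-type and 17 LI microglia, 1 and 4 neutrophils, and 0 and 5 progenitors.

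A few cells held much of the ribosomal protein mRNA of the LI neutrophil gate. The 68 cells that also met the progenitor gate were 1.88% of its cells and held 31.6% of its member UMIs, with a median share of 20.8% per cell. These cells were deep, with a median of 29868.5 UMIs against 4194 in the gate, so part of the 31.6% reflects depth. Members took 19.5% of their summed UMIs, against 5.59% in the gate. LI neutrophils that met no other gate had a median of 2.87%. The 242 LI neutrophils with at least 2 of 4 division markers had a median of 5.45%, and the 3380 others 2.84%. In other gates this split went less far or the other way. With and without the markers, LI progenitors had 24.4% and 23.9%. Cells of no gate had 19.9% and 23.2% (LI) and 15.7% and 16.9% (wild-type), lower with the markers. Microglia had 10.2% (7 cells) and 9.19% (LI), and 7.91% (22 cells) and 7.85% (wild-type). LI neutrophils with at least 1% of UMIs from the granule genes Camp, Ngp and Ltf had a median of 2.73% and those below it 3.06%, and the wild-type medians were 2.37% and 3.19%. These splits were chosen after values were seen.

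Cells of no gate had a median of 16.7% in the wild-type library and 22.7% in the LI library. They were sorted, also after values were seen, by at least 2 detected markers of exactly 1 other cell type. Cells with T and NK cell markers had medians of 25.7% and 29.3%, the highest of the groups so formed. Cells with B cell markers had 21.7% and 26.1%, those with monocyte markers 18.0% and 22.5%, and those with border macrophage markers 14.4% and 18.2%. The 12 LI cells with erythroid markers had 0.611%.

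Within microglia the share had a weak rank relation to depth. Spearman's rho between the share and the UMIs of a cell was 0.08 in either library, as a description over 6192 and 2011 cells that share a library. With the mitochondrial share rho was 0.40 and 0.42, and with the share of Malat1, a nuclear RNA, -0.44 and -0.41; all of these shares are fractions of the same UMIs. In the 235 LI progenitors rho with depth was 0.41.

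Among single members, Rplp1 was the most abundant in wild-type microglia. It encodes an acidic protein of the ribosomal stalk, the arm of the large subunit that recruits elongation factors. Its level was 2868 CPM in wild-type and 3356 CPM in LI microglia. Rps24 followed with 2591 and 2914 CPM, then Rpl13 with 2300 and 2517, Rps9 with 2097 and 2392, and Rpl30 with 2039 and 2447. These 5 genes encode proteins of both subunits. Rplp1 alone held 3.32% of the member UMIs of wild-type microglia and 3.27% of those of LI microglia.

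In progenitors nearly all members stood higher than in microglia, by more than 2-fold at the median, while the median of all genes stood lower. Of 82 members with at least 50 UMIs in the wild-type groups compared, 74 were at least 1.5-fold higher and 0 at least 1.5-fold lower, against 20.5% of all 10717 genes that were higher by that fold. In the LI library 75 of 81 were higher and 0 lower, against 22.1% of 9998 genes that were higher. The shares of all genes lower by that fold are not given here. The median log2 ratio of the members was 1.19 and 1.23, and that of all genes -0.34 and -0.50. The summed share was 2.32-fold higher in the wild-type library (log2 1.21, 1.199 to 1.227) and 2.38-fold in the LI library (log2 1.25, 1.249 to 1.257). Across the 81 members compared in both, the ratios of the libraries, which share no cells, had a Pearson's r of 0.97 and a Spearman's rho of 0.94, as a description across genes of 1 family.

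Rpsa, which encodes the laminin receptor protein of the small subunit, had the largest shift. Its level was 784 CPM in wild-type microglia and 4118 CPM in wild-type progenitors, and 904 and 4922 CPM in the LI cells. The log2 ratio was 2.39 (2.29 to 2.49) and 2.45 (2.41 to 2.48). Within the member UMIs, which sets aside the shift of the whole family, Rpsa took 0.907% in wild-type microglia and 2.05% in progenitors. Rps2, a protein near the mRNA entry channel of the small subunit, had 1021 and 4939 CPM in the wild-type and 1157 and 5617 CPM in the LI cells, with log2 ratios of 2.27 and 2.28. Rplp0, the base of the stalk, had 1106 and 4323 CPM and 1289 and 5120 CPM, with log2 ratios of 1.97 and 1.99. Rps19 and Rps26, both mutated in Diamond-Blackfan anemia, a failure of red cell precursors, had log2 ratios of 1.87 and 2.04 in the wild-type library and 2.01 and 1.85 in the LI library. The longest pyrimidine run in the start window was 5 for Rpsa, 6 for Rps2, 5 for Rplp0, 7 for Rps19 and 9 for Rps26. Whether these mRNAs carry the tract was not tested.

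The members that took least part in this shift included the most abundant microglial one. Rplp1 stood at 2868 CPM in wild-type microglia and 3240 CPM in progenitors (log2 0.18, 0.06 to 0.28), and at 3356 and 3529 CPM in the LI cells (0.07, 0.05 to 0.10). Its share of the member UMIs was 3.32% and 1.62%, and 3.27% and 1.44%. Its partner Rplp2 had ratios of 1.28 and 1.21, near the median of the family, so the 3 stalk genes spread over most of the range of the members. Rps27, a zinc-binding protein of the small subunit, had ratios of 0.41 and 0.44, and Rps29, another small zinc-binding protein, 0.48 and 0.52. Rps19bp1 encodes a nucleolar protein that binds Rps19 and is no ribosomal protein. Its levels were 46.0 and 42.9 CPM in wild-type microglia and progenitors and 49.7 and 49.9 CPM in the LI cells.

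**Figure D2:**
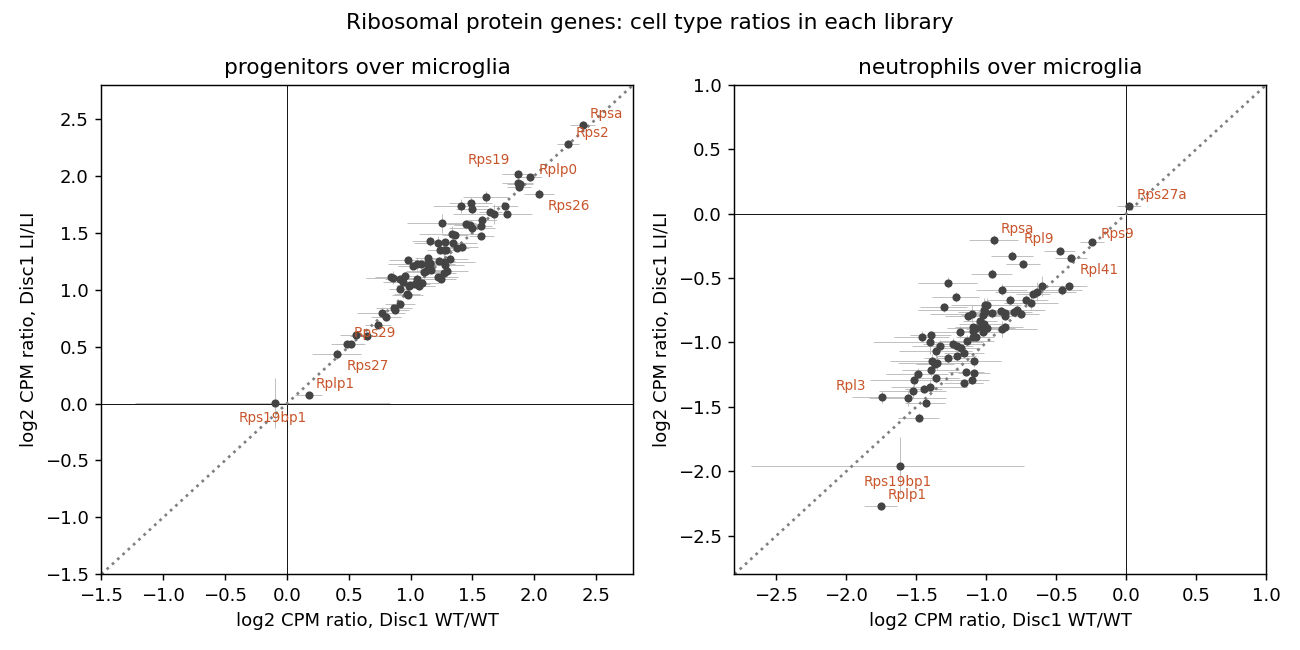
Log2 CPM ratio of each ribosomal protein gene in Disc1 WT/WT (x axis) against Disc1 LI/LI (y axis), for progenitors over microglia (left) and neutrophils over microglia (right). Points are members with at least 1000 UMIs, bars are 95% counting intervals, the dotted line marks equal ratios, and Rpsa lies highest on the left (2.39 and 2.45) and Rplp1 lowest on the right (-1.75 and -2.27).

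In neutrophils most members stood lower than in microglia, and so did most genes. In the wild-type library 74 of 82 members were at least 1.5-fold lower, against 64.1% of all 10776 genes, and the median log2 ratio was -1.08 for the members and -1.10 for all genes. In the LI library 70 of 82 were lower, against 68.6% of 10437 genes, with medians of -0.89 and -1.27. S100a8 and S100a9 alone took 24.9% of the UMIs of wild-type and 31.0% of those of LI neutrophils, a part of the total that is then not open to other genes. TMM scaling takes the typical gene as unchanged. Under it the summed share of LI neutrophils was above that of microglia (log2 0.41, in place of -0.88). Lower by 1.5-fold were then 2 of 82 members, against 34.5% of all genes. In the wild-type library the neutrophil share stayed below under TMM scaling (-0.46 in place of -1.02). There 33 of 82 members were past the fold, against 45.1% of all genes. Higher by 1.5-fold was 1 member in each library, Rpl39l in the wild-type and Rpl3l in the LI library, against 10.3% and 15.4% of all genes. Rpl3l met the minimum of UMIs for members only through LI neutrophils, so its place in this count partly follows from that rule.

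The order of the members in neutrophils was similar in both libraries, with a Pearson's r of 0.79 and a Spearman's rho of 0.84 between the ratios of 81 members. Rps27a was the abundant member that stood level with microglia. It had 1707 CPM in wild-type microglia and 1733 CPM in neutrophils (log2 0.02, -0.06 to 0.11), and 2018 and 2099 CPM in the LI cells (0.06, 0.03 to 0.08). The Rps27a mRNA encodes ubiquitin fused to a ribosomal protein. Fau, which encodes a ribosomal protein fused to a ubiquitin-like protein and lies outside the name rule, had 3354 and 3074 CPM (log2 -0.13) and, in the LI cells, 4191 and 3845 CPM (-0.12). Rps9 had -0.24 and -0.22, Rpl41, the smallest ribosomal protein, -0.39 and -0.34, and Rpl9 -0.47 and -0.29. These values include cells of several gates. Among cells that met 1 gate only, Rps27a had 2026 CPM in LI microglia and 1827 CPM in LI neutrophils, and 1707 and 1712 CPM in the wild-type cells. There Rps9 had 2405 and 1954 CPM (LI) and 2098 and 1735 CPM (wild-type). Rpl41 had 1766 and 1076 CPM (LI) and 1247 and 835 CPM (wild-type), and Rpl9 1604 and 1084 CPM (LI) and 1399 and 941 CPM (wild-type). Reads of Rpl9 and its pseudogene copies, and of Rps27 and its retrogene Rps27rt, may be split by the counting, so their levels are uncertain. Rps27rt had 6.54 CPM in wild-type microglia and 7.49 CPM in neutrophils, and 10.05 and 6.35 CPM in the LI cells.

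Rplp1 was the abundant member furthest below its microglial level. It had 2868 CPM in wild-type microglia and 850 CPM in neutrophils (log2 -1.75, -1.88 to -1.64), and 3356 and 695 CPM in the LI cells (-2.27, -2.30 to -2.24). Among cells that met 1 gate only, the levels were 2872 and 610 CPM in the wild-type and 3426 and 476 CPM in the LI cells. Thus the most abundant member of wild-type microglia stood in neutrophils below Rps27a, Rps9 and Rps24, which had 1733, 1770 and 1214 CPM in the wild-type library. Rpl3, which lies beside the catalytic centre, had ratios of -1.74 and -1.42, Rpl12, at the base of the stalk, -1.56 and -1.43, and Rpl10, one of the last proteins to join the large subunit, -1.48 and -1.58.

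**Figure D3:**
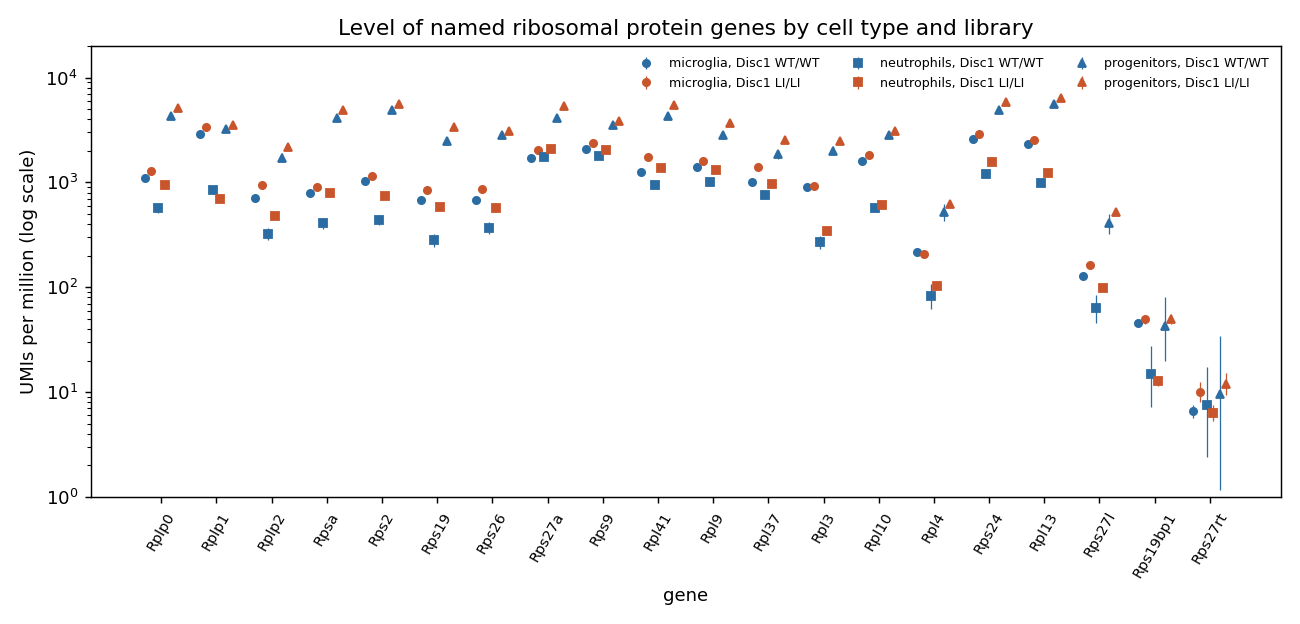
Level of named members (y axis, CPM, log scale) in microglia (circles), neutrophils (squares) and progenitors (triangles) of Disc1 WT/WT (blue) and Disc1 LI/LI (orange), with 95% counting intervals. Cells of several gates are kept in each. Rpsa is highest in progenitors (4118 and 4922 CPM) and lowest in neutrophils (406 and 784 CPM). With these cells kept, Rps27a is level in microglia and neutrophils, and Rplp1 is nearly level in microglia and progenitors.

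Paralogs followed their parent genes in part. Rps27l, a paralog of Rps27, had 127 and 164 CPM in wild-type and LI microglia, 63.0 and 97.8 CPM in neutrophils and 406 and 522 CPM in progenitors. Its progenitor ratio (log2 1.67 and 1.67) was above that of Rps27 (0.41 and 0.44), with no overlap of the intervals. Rpl36al, whose reads may be shared with its close copy Rpl36a, had 389 and 484 CPM in microglia, where Rpl36a had 399.6 and 538 CPM, and 988 and 1283 CPM in progenitors. Rpl39l, known from the testis, had 58 UMIs in wild-type and 22 in LI microglia, 5 and 12 in neutrophils, and 0 and 8 in progenitors, and in the LI library it was under the minimum of 50 UMIs.

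Rpl3l, known as the muscle paralog of Rpl3, had 108 UMIs in 99 of the 3622 LI neutrophils (5.00 CPM). It had 0 in the microglia of either library, which allows at most 0.346 CPM in LI and 0.102 CPM in wild-type microglia, so its level in LI neutrophils was at least 14.4-fold higher. A further 27 UMIs lay in LI cells of no gate (1.92 CPM), 2 in LI progenitors, and 2 each in wild-type neutrophils and wild-type cells of no gate. Without its LI neutrophil UMIs Rpl3l would have been under the minimum for members. Its entry among the members and its ratio in LI neutrophils thus rest on the same counts. The gene (chromosome 17, 24727820 to 24736143, mm10) ends 498 bases before Msrb1 on the same strand. Msrb1, a methionine sulfoxide reductase, had 1400 CPM in LI neutrophils, 937 CPM in LI cells of no gate and 106 CPM in LI microglia, and its part in the Rpl3l counts was not tested.

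Other genes of the translation machinery were described by lists, to be read against the 20.5% (wild-type) and 22.1% (LI) of all genes that were higher in progenitors. The counts of lower genes have no such share beside them. Of the 10717 genes tested in the wild-type library, 3586 had an expected count of at least 10 in the smaller group. Of the 6 elongation factors, Eif5a included, 4 were at least 1.5-fold higher in wild-type progenitors and 5 in LI progenitors, with median log2 ratios of 0.88 and 1.08. Eef1a1, which brings aminoacyl-tRNA to the ribosome, had 3161 CPM in wild-type microglia and 5697 CPM in progenitors, and 3182 and 5873 CPM in the LI cells. Of 15 other transcripts known to carry the pyrimidine tract, a list that shares Eef1a1, 11 were higher and 0 lower in either library, with a median of 1.07. Tpt1 among them, a growth-related protein, had ratios of 0.50 and 0.52. Mitochondrial ribosomal proteins, encoded in the nucleus, had 41 of 78 higher and 5 lower in the wild-type and 42 higher and 1 lower in the LI library (medians of 0.66 and 0.67). Mrpl52, the most abundant of them in microglia, was lower, with ratios of -0.68 (-1.28 to -0.14) and -1.34. It had 27 UMIs in wild-type progenitors. Mrps33 had ratios of 0.39 (-0.12 to 0.85) and 0.35.

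Of 32 genes of ribosome biogenesis, which build the subunits in the nucleolus, 8 were higher and 10 lower in the 8 wild-type progenitors. In the LI ones 18 were higher and 1 lower. The wild-type count of higher genes lay near the share of all genes that were higher. Npm1, a nucleolar chaperone, had log2 ratios of 1.27 and 1.598. Initiation factors, a list by symbol that includes the Eif2ak kinases, had 21 of 55 higher and 7 lower in the wild-type and 21 of 54 and 7 in the LI library, with medians of 0.23 and 0.32. All 9 genes of the Diamond-Blackfan anemia list were higher in progenitors of either library. They are members themselves, of which 74 of 82 (wild-type) and 75 of 81 (LI) were higher, so their count does not set them apart. Outside the name rule, the ribosomal protein Rack1 had 1.36 and 1.65, whereas Fau had 0.40 and 0.36.

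In neutrophils ribosome biogenesis had the lowest median of these lists, -1.84 and -2.05, beside -1.10 and -1.27 for all genes, with 26 of 32 genes at least 1.5-fold lower in the wild-type and 28 of 31 in the LI library, where 64.1% and 68.6% of all genes were. Of the initiation factors 2 of 55 were higher and 39 lower in the wild-type library, and 2 of 54 and 38 in the LI library. Their medians were -1.02 and -1.13. Unlike most of that list, Eif1, which helps to select the start codon, stood higher in neutrophils (log2 0.86 and 0.64). It went from 1126 to 2046 CPM and from 1403 to 2190 CPM.

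**Figure D4:**
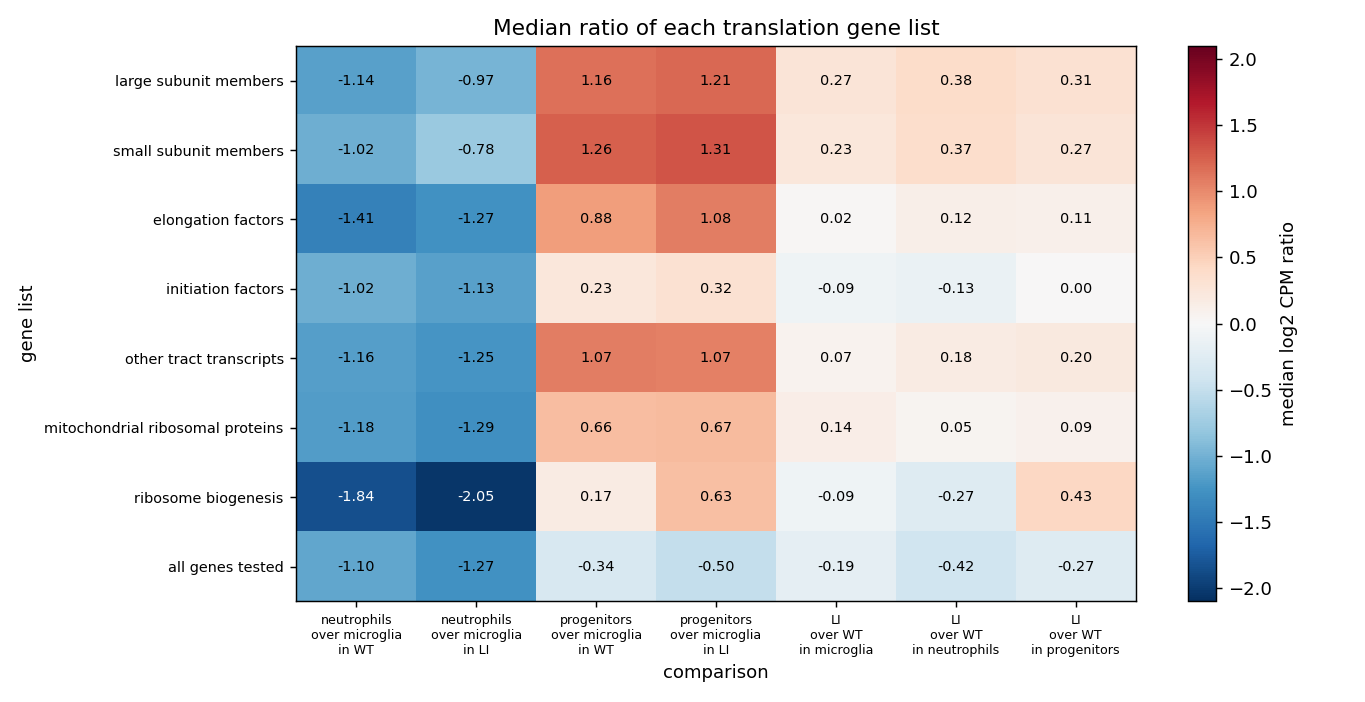
Median log2 CPM ratio (colour and printed value) of each translation gene list (rows) in each comparison (columns), with all genes tested in the last row. Ribosomal protein genes of either subunit lie between 1.16 and 1.31 in progenitors over microglia, where all genes lie at -0.34 and -0.50.

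Between the genotypes, ribosomal protein mRNA took a larger share in the LI library in each gate. In microglia the summed share was 10.3% against 8.65% (log2 ratio 0.25, 0.24 to 0.25, or 1.19-fold). Of 82 members 39 were at least 1.2-fold higher and 0 lower by that fold, against 11.1% of all 10873 genes higher, and 80 of 82 had a ratio above 0. The median ratio was 0.25 for the members and -0.19 for all genes. In progenitors 53 of 81 members were higher, against 26.5% of all genes, with a summed ratio of 0.29 (0.27 to 0.30). The 9 progenitor markers together had 10140 CPM in wild-type and 33457 CPM in LI progenitors, the neutrophil markers 32982 and 63714 CPM, and the 4 division markers 2515 and 1365 CPM. In neutrophils 59 of 82 were higher and 1, Rplp1, lower (higher under TMM scaling), against 19.6% of all genes higher, with a summed ratio of 0.39 (0.37 to 0.40). Microglia markers had 9035 CPM in wild-type and 1877 CPM in LI neutrophils, and progenitor markers 814 and 4207 CPM. The part of these markers in the ratios was not tested. Among cells that met 1 gate only, the neutrophil ratio was 0.20, with 30 of 82 members past the fold against 19.9% of all genes. As the mean of the share per cell the neutrophil ratio was 0.09. By that mean 13 of 82 members passed the fold, against 18.7% of all genes, so the count did not exceed that share. In microglia 25 of 82 members passed the fold by that mean, against 11.3% of all genes.

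The median share per cell was higher in the LI library in 8 of 8 cell groups. These were the 3 gates, the groups with monocyte, border macrophage, T and NK or B cell markers, and the remaining cells of no gate. All 8 come from the same pair of libraries and are not independent comparisons. The smallest wild-type groups were 8 progenitors and 14 cells with B cell markers. Cells with erythroid markers were left out, as there were 3 in the wild-type library. At matched depth the microglia medians were 7.28% (wild-type) and 11.4% (LI) under 2000 UMIs, 7.66% and 8.96% from 2000 to 4000, 7.90% and 9.47% from 4000 to 8000, and 8.30% and 10.05% from 8000 to 16000. Above 16000 UMIs the LI median was the lower one, 8.35% in 5 cells against 9.35% in 25. In neutrophils the order changed with depth. Their medians were 2.84% and 3.82% under 2000 UMIs, 3.24% and 2.83% from 2000 to 4000, 2.26% and 2.51% from 4000 to 8000, and 4.70% and 3.62% from 8000 to 16000, with 17 to 45 wild-type cells in each. Neutrophil transcripts stood higher in LI microglia, where S100a8 and S100a9 took 0.767% of UMIs against 0.0567% in wild-type microglia and the 12 neutrophil markers together had 10082 against 873 CPM. Among microglia with under 0.1% of such UMIs and no UMI of a progenitor gate gene (6156 wild-type and 1041 LI cells) the summed ratio was again 0.25. Past the fold were 35 of 82 members, against 11.8% of all genes. Mitochondrial UMIs had medians of 0.860% in wild-type and 0.697% in LI microglia, and Malat1 2.98% and 2.92%; their part in the ratio was not tested.

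Members with the highest genotype ratio in microglia encode very short proteins. Rpl37 had 1016 CPM in wild-type and 1417 CPM in LI microglia (log2 0.48, 0.45 to 0.51), and Rpl41, with a coding sequence of 75 bases, had 1247 and 1738 CPM (0.48, 0.45 to 0.51). Rpl36 had a ratio of 0.46 (0.42 to 0.51), and Rpl37a, with 1308 and 1796 CPM, 0.46 (0.43 to 0.48). The retrogene Rps27rt had 0.62, with an interval of 0.24 to 0.99. At the other end were the longest members tested. Rpl4, with a coding sequence of 1257 bases, had 218 and 206 CPM (-0.08, -0.16 to -0.0033), and Rpl3, with 1209 bases, had 898 and 925 CPM (0.04, 0.0062 to 0.08). Rpl23a (-0.0065), Rpl12 (0.02) and Rps12 (0.04) were also among the lowest 5, with coding sequences of 468, 495 and 396 bases.

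The genotype ratio in microglia fell with coding length across the members and across all genes. Spearman's rho was -0.66 over 82 members and -0.50 over 10280 genes, as a description of 1 pair of libraries, with coding lengths of the principal isoform in GENCODE. All 12 members of at most 300 bases were at least 1.2-fold higher in the LI library, as were 60.7% of the 84 other genes of that length with at least 100 CPM. Of members with 300 to 600 bases 47.9% were higher, against 24.9% of such other genes, and of those with 600 to 1000 bases 20.0% against 11.2%. The median log2 ratios of the members in these 3 ranges were 0.42, 0.25 and 0.19, and those of the other genes 0.28, 0.16 and 0.02. The members' median was above that of the other genes in each range, but levels were not matched beyond that minimum, which the members did not have to meet. The ranges were chosen after values were seen, and the part of length in the ratio was not tested.

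By rank, the members' ratios had a weak relation to length in neutrophils (rho -0.05) and progenitors (-0.14), whereas rho over all genes was -0.32 and -0.33. In progenitors the share of members past 1.2-fold nevertheless fell with length. It was 100% of 11 members up to 300 bases, 66.7% from 300 to 600 and 45.0% from 600 to 1000. Among other genes with at least 100 CPM the shares also fell, from 40.3% to 31.0% and 27.5%. The median log2 ratios of the members in these ranges were 0.31, 0.30 and 0.25. In neutrophils the shares of members were 72.7%, 68.75% and 75%, and those of such other genes 53.6%, 35.4% and 21.4%. The wild-type progenitors were 8 cells, and the part of length was not tested. Rps19 had 282 CPM in wild-type and 580 CPM in LI neutrophils (log2 1.04, 0.83 to 1.26), and Rpsa had 406 and 784 CPM (0.95, 0.78 to 1.13). Both are among the members highest in progenitors. In cells that met the neutrophil gate only, their ratios were 0.83 and 0.86.

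**Figure D5:**
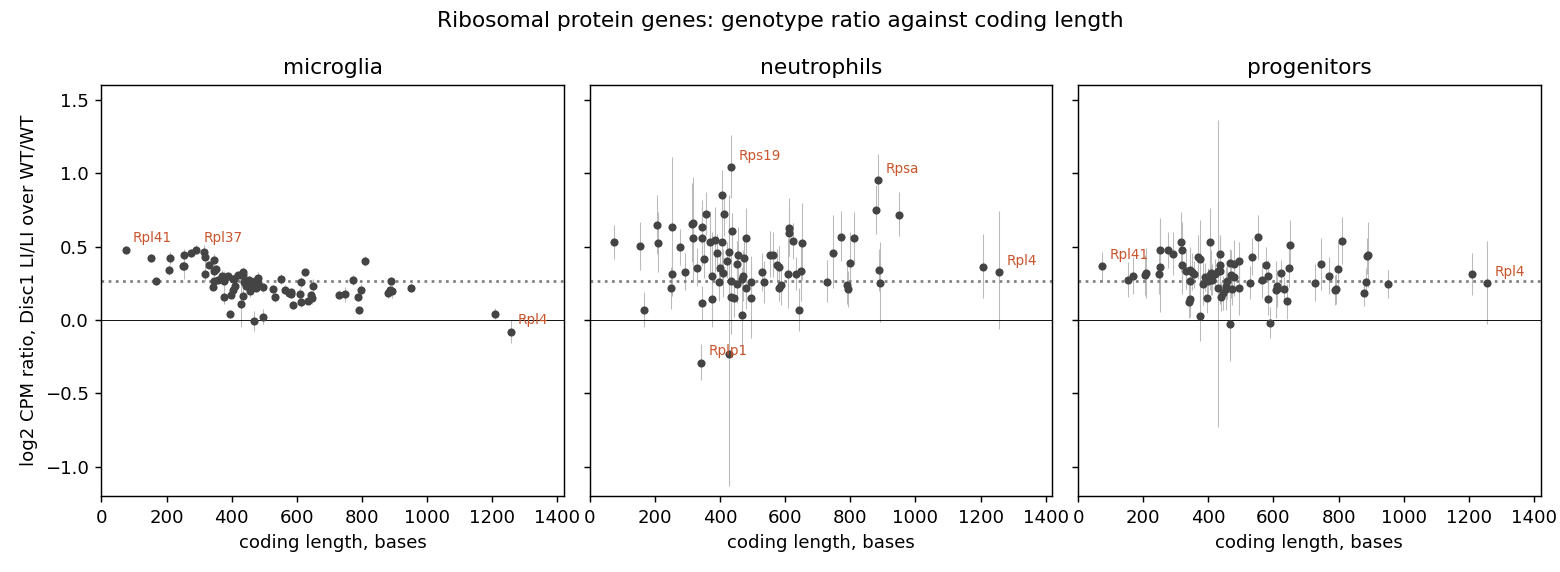
Log2 CPM ratio of Disc1 LI/LI over Disc1 WT/WT (y axis) for each ribosomal protein gene with at least 1000 UMIs, against coding length in bases (x axis), in microglia, neutrophils and progenitors. Bars are 95% counting intervals and the dotted line marks 1.2-fold, and in microglia the ratio goes from 0.48 for Rpl41 to -0.08 for Rpl4.

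Most other translation lists had medians below that of the members in the genotype comparison of microglia, where 11.1% of all genes were higher. The lists were not matched to the members by coding length, with which the ratio fell over all genes (rho -0.50). The part of length in these differences was not tested. Of the 6 elongation factors 0 passed 1.2-fold in either direction (median 0.02), and Eef1a1 had 3161 and 3182 CPM (log2 0.0099, -0.0095 to 0.03). Of the 15 other tract transcripts 0 were higher and 1 lower (median 0.07). Of the initiation factors 7 of 55 were higher and 17 lower (-0.09), and of the biogenesis genes 3 of 32 were higher and 12 lower (-0.09). Both medians lay above that of all genes (-0.19), and the share of all genes lower by that fold is not given here. Among mitochondrial ribosomal proteins 10 of 78 were higher and 5 lower (0.14). Outside the name rule, Fau (0.32), above the members' median, passed the fold, and Rack1 was at 0.24. In progenitors 21 of 30 biogenesis genes were higher in the LI library and 4 lower, with a median of 0.43, against 26.5% of all genes higher and a median of -0.27. The wild-type side of this comparison is 8 cells, and the list ranged from -1.40 to 2.24. Of the 7087 genes tested there, 2572 had an expected count of at least 10 in the smaller group.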

How the data were processed

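The authors deposited UMI counts for each gene and barcode without normalization, 1 library per genotype from 6 pooled mice. Cell Ranger 6.1.2 is named in the file headers, and the submitters' processing notes also name STAR, Seurat 3.0.1 and mm10. Libraries held 33601957 (Disc1 WT/WT) and 47731571 UMIs (Disc1 LI/LI), with medians of 4234 and 4561.5 per barcode.

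Members, gene lists and rules were chosen with earlier results of these data known. Counts were summed over the cells of a gate and divided by their total. Genes with at least 100 UMIs over both libraries and 50 in the groups compared entered a comparison and were called past 1.5-fold between cell types or 1.2-fold between genotypes, without a test. Intervals were conditional Clopper-Pearson for ratios, exact binomial for shares and exact Poisson for levels. Medians of lists used 0.5 added counts, and a bound took a count of 0 as 3. No doublet caller was run, and cells of several gates stayed in each. Named were the 5 most abundant members in wild-type microglia, the 5 highest and lowest by share of member UMIs in each cell type comparison and by genotype ratio in microglia, paralogs, stalk genes and the most abundant genes of other lists. Msrb1 was chosen after its values were seen. Of those lists, 1 gene is not reported here. Alternatives were other gates, cell filters, minimums, totals, TMM scaling, thinning, a mean over cells and the other member rule, and microglia without neutrophil transcripts and an expected count of at least 10 were added after seeing the data. The ratio intervals were tested on simulated data. Coding lengths and positions came from GENCODE, start sequences from RefSeq. Tools were Python 3.11.15 with numpy 2.4.6, pandas 2.3.3, scipy 1.17.1 and matplotlib 3.10.9, and edgeR 4.0.16 in R 4.3.3 for TMM only.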

Additional observations from a re-analysis of the deposited data

Results flagged for a closer look

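Rplp1, scaled to UMI totals, went in opposite directions between the genotypes in different cells. It was higher in the LI library in microglia (log2 0.23, from 2868 to 3356 CPM) and in progenitors (0.12) and lower in neutrophils (-0.29, from 850 to 695 CPM). The ratio in microglia exceeded that in neutrophils by 0.52, and the ratio in neutrophils minus that in progenitors was -0.41. In cells that met the neutrophil gate only the ratio was -0.36 (-0.52 to -0.19). Under TMM scaling the opposite direction was lost, with ratios of 0.37 in microglia, 0.49 in progenitors and 0.58 in neutrophils. These differences stood out because the counting intervals lay on opposite sides of 0, and they were not tested, since each genotype has 1 library. Rpl39l had a higher level in neutrophils than in microglia in the wild-type library (log2 1.93, 0.26 to 3.24) and a lower one in the LI library (-2.19), a difference of 4.12 that rests on 5 and 12 neutrophil UMIs and was not tested. Under TMM scaling these ratios were 2.48 and -0.91.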

How the results depend on the processing

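Summed ratios are log2, in the order neutrophils over microglia (wild-type, LI), progenitors over microglia (wild-type, LI), and LI over wild-type in microglia, neutrophils and progenitors. They were -1.02, -0.88, 1.21, 1.25, 0.25, 0.39 and 0.29. With cells of 1 gate only they were -1.27, -1.34, 1.27, 1.37, 0.27, 0.20 and 0.37. With TMM scaling they were -0.46, 0.41, 1.44, 1.70, 0.39, 1.25 and 0.65, so that the LI neutrophil ratio changed sign. TMM moved every gene by 0.55, 1.28, 0.22, 0.45, 0.14, 0.87 and 0.37. With totals that left out hemoglobin, mitochondrial and gate genes they were -0.62, -0.36, 1.25, 1.35, 0.25, 0.51 and 0.35. With cells thinned to 1000 UMIs they were -1.27, -1.37, 1.10, 1.24, 0.21, 0.11 and 0.35. As the mean of the share per cell the first 6 were -1.24, -1.37, 1.16, 1.23, 0.22 and 0.094, and with gate thresholds 2 times as high -0.88, -0.84, 1.39, 1.48, 0.21 and 0.26. Under the letter-by-letter reading of l1 the neutrophil ratios were -0.98 and -0.85 and the microglia genotype ratio 0.26. Counts past the fold that moved by over 1.5 times were, under TMM scaling, 33 (wild-type) and 2 (LI) lower in neutrophils and 74 and 81 higher in LI microglia and progenitors. The shares of all genes past the fold were then 45.1%, 34.5%, 21.5% and 45.3%, beside 82, 82, 82 and 81 members tested. Without gate, hemoglobin and mitochondrial genes 23 of 82 members were lower in LI neutrophils, against 54.9% of all genes. The genotype count in neutrophils was 30 of 82 with cells of 1 gate only, 13 of 82 with the mean per cell and 21 of 79 after thinning. The shares of all genes were then 19.9%, 18.7% and 22.1%. The genotype count in microglia was 25 of 82 with the mean per cell, against 11.3% of all genes. The causes of these moves were not tested. Of the other planned values, 88 moved by less, as did 21 values of alternatives added after the data were seen. No paired analysis was possible because each genotype has 1 library, and no replicate could be left out. The wild-type library held 8 progenitors and 116 neutrophils, and the intervals do not cover the spread between mice or libraries.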
